A study of Mus musculus with 2 samples.

Results

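The Meis, Pbx and Pknox genes encode homeodomain transcription factors of the TALE class. They were chosen by name, as Meis1, Meis2, Meis3, Pbx2, Pbx3, Pbx4, Pknox1 and Pknox2, and read through every probe set that names 1 of them alone. These 8 genes, of 18194 named on the array, were represented by 20 of its 45101 probe sets, and no probe set named a member together with another gene. Their signals were compared between EGFP-positive and EGFP-negative cells sorted from mouse otocysts, the epithelial vesicles from which the inner ear forms. All cells came from embryos at E10.5 that were heterozygous for the transgene Tg(ETAR-EGFP)14Imeg, so both groups carried the same genotype and were separated by fluorescence alone, after trypsin dissociation and with propidium iodide present. Per the labels, EGFP lies mainly in the ventral and dorsomedial otocyst and is missing from its dorsolateral part. Each population was measured on 1 array, and how many embryos went into each is not stated in the labels.

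TALE proteins differ from other homeodomain factors by a longer loop within the homeodomain. Meis and Pknox proteins, the latter also called Prep, bind Pbx proteins and so form complexes that bind DNA, often together with Hox proteins, and Pbx partners are retained in the nucleus through this contact. Meis genes are known for their response to retinoic acid and for roles in hindbrain, limb, eye and blood development, and Meis transcripts are widespread in embryonic mesenchyme and neural tissue.

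Meis1 and Meis2 were lower in EGFP-positive than in EGFP-negative cells, called positive and negative cells from here on, by 4.97-fold and 3.35-fold, whereas the Pbx and Pknox partners and Meis3 stayed within 2-fold. Of the 7 members that exceeded the floor in either library, 2 were higher by 2-fold or more in negative cells and none in positive cells. Across the 13363 genes above the floor, 7.63% were at least 2-fold higher in negative and 2.9% in positive cells. The median log2 ratio of EGFP-positive over EGFP-negative signal was -0.31 for the 7 members and 0.0032 for all these genes. The floor is the 40th percentile of each array, a signal of 10.4 in the positive and 12.4 in the negative library, to which lower signals were raised. Neither population was replicated, so no test between populations is possible and every value describes these 2 libraries. The only error that could be measured was technical, taken as the SD among the log2 ratios that the probe sets of a gene gave. It was 0.411 over 950 genes with a mean signal under 50, 0.328 over 2764 genes between 50 and 200, and 0.249 over 1926 genes above 200. It leaves out variation between embryos, sorts and hybridisations.

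**Figure D1:**
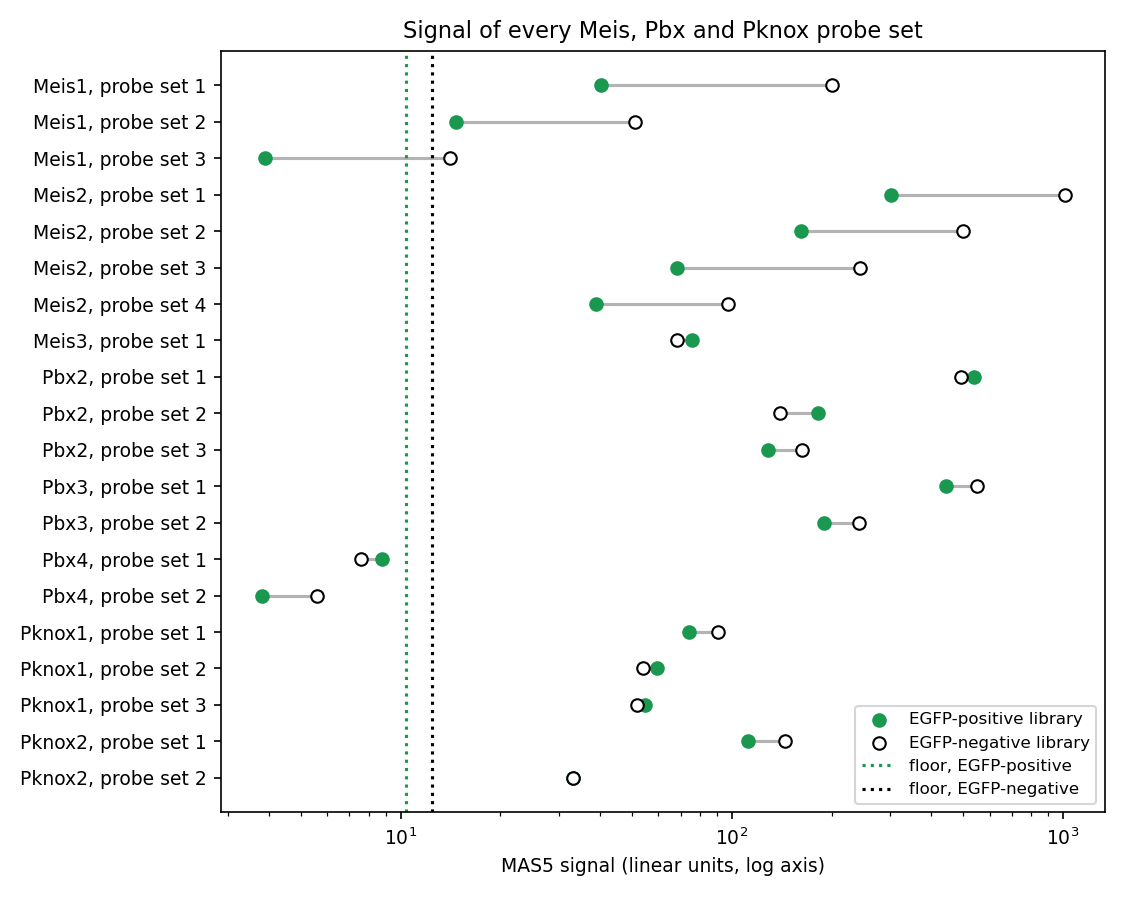
MAS5 signal (horizontal log axis) of each of the 20 probe sets of the 8 genes, with filled green points for the positive library, open points for the negative library and dotted lines at the 2 floors. The points of Meis1 and Meis2 lie far apart, with the negative library higher, those of the other genes lie close together or, in the second Pknox2 probe set, coincide at 33.2, and both Pbx4 probe sets lie left of the floors.

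Meis1, a Pbx partner first known as a site of viral integration in leukaemia, was read by 3 probe sets. The brightest had a signal of 40.3 in positive and 200.4 in negative cells, a log2 ratio of -2.31 with a technical SD of 0.33. The next had 14.7 in positive against 51.0 in negative cells, a log2 ratio of -1.79 with the lower signal close to 12.3, the highest of 27 bacterial control probe sets in that library. The last had 3.9 against 14.1, where the signal in positive cells lay below the floor and that in negative cells was at least 1.36-fold higher. All 3 probe sets were thus lower in the positive library, the weakest of them as a bound only. In positive cells the brightest kept 20.1% of the signal it had in negative cells. Of the 13363 genes, 235 had a lower ratio than Meis1, which is 1.76%.

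Meis2, also known as a gene stimulated by retinoic acid, had 4 probe sets, all above the floor in both libraries. The signals were 301.7 in positive against 1011.3 in negative cells for the brightest, and 161.6 against 498.8 for the next. The other two had 68.3 against 244.1 and 38.9 against 97.7. Every Meis2 probe set was lower in positive cells, and the share of signal kept there ran from 28.0% to 39.8%. The log2 ratios lay between -1.84 and -1.33, with an SD of 0.22 among the 4. The brightest probe set, at -1.75, carries the suffix that Affymetrix gives to probe sets shared between transcripts of different genes, and the set at -1.84 the suffix for possible cross-hybridisation. The only Meis2 probe set without a suffix letter had the smallest difference, 2.51-fold. Of all genes, 438 had a lower ratio than Meis2, or 3.28%.

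Over both genes, 6 of 7 probe sets were at least 2-fold higher in negative cells, where 6.63% of the 24820 probe sets above the floor were. Meis1 and Meis2 each had all their probe sets that were above the floor in both libraries past 2-fold in this direction, which held for 2.16% of 5640 genes with several such probe sets. Their own ratios differed by -0.57 on the log2 scale (Meis1 minus Meis2), 1.38 times the technical SD of such a difference, 0.412. The order of Meis1 and Meis2 is therefore not resolved.

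Since Meis1 and Meis2 were low together, the bases before their transcription starts are shown, as given by RefSeq for GRCm38.p6, 5′ to 3′ on the strand of the gene. Each run is the 250 bases before the annotated start, and capitals mark the 1 match found in each to the letters searched, which were TGACAG (the Meis core), TGATNNAT (a Pbx and Hox core), AGGTCA (a core bound by nuclear receptors) and CCAAT, on both strands.
Meis1 promoter, chr11:19018970-19019219, minus strand: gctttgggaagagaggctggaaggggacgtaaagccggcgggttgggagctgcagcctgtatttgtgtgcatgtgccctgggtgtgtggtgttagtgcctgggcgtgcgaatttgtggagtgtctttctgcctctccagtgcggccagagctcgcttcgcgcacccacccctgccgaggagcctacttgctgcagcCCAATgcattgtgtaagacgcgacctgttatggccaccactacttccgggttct
Meis2 promoter, chr2:116064620-116064869, minus strand: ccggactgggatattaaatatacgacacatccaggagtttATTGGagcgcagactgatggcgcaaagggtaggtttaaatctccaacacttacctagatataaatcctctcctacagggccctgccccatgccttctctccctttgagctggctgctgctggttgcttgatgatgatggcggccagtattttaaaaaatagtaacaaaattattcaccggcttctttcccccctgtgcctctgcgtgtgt
In both runs the match is a CCAAT box, on the strand shown in Meis1, from 54 to 50 bases before the start, and on the other strand in Meis2, from 210 to 206 bases before it. CCAAT occurred in 33.8% of 32851 RefSeq promoter windows of the same length. The other letters, TGACAG, TGATNNAT and AGGTCA, occurred in 15.9%, 7.68% and 14.0% of windows and in none of the 5 member promoters that were matched, which were those of Meis1, Meis2, Meis3, Pbx2 and Pbx4. Meis3 and Pbx2 held no match at all and Pbx4 held 2 CCAAT boxes. The GC content of the run was 59.6% for Meis1 and 47.6% for Meis2, against a median of 52.4% over all windows.

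Meis3, the remaining Meis gene, did not share the difference. Its single probe set had a signal of 75.6 in positive and 68.1 in negative cells, a log2 ratio of 0.15 with a technical SD of 0.33. That ratio lay 5.31 technical SDs above that of Meis1 and 4.60 above that of Meis2, as a description of 2 arrays.

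**Figure D2:**
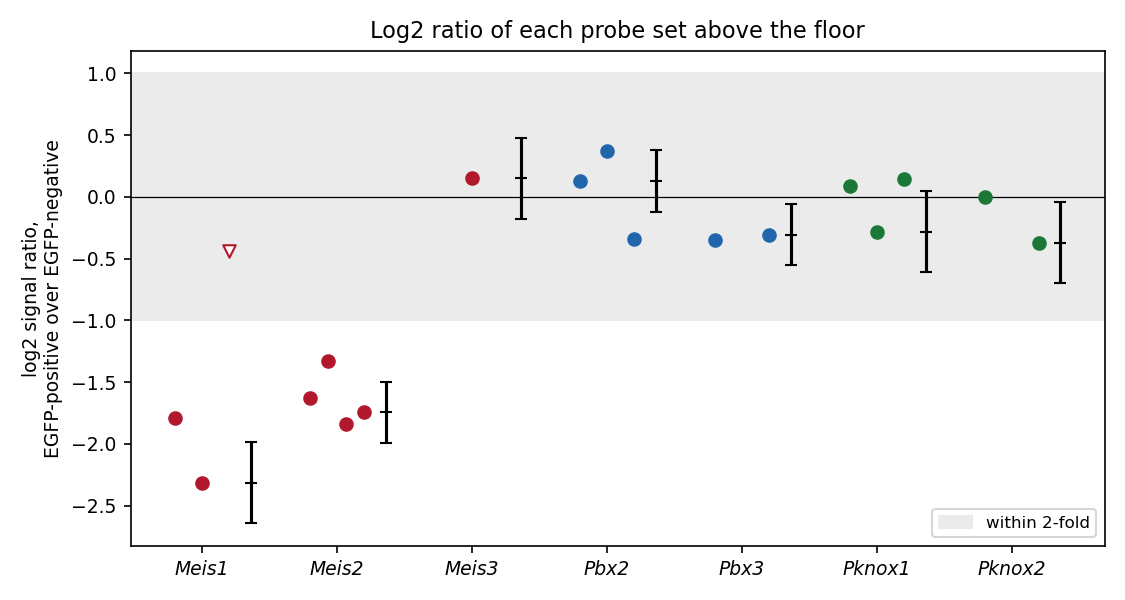
Log2 ratio of EGFP-positive over EGFP-negative signal (vertical axis) for each probe set above the floor, by gene, with an open triangle where the signal of positive cells was raised to the floor. Black bars show the technical SD around the probe set that represents the gene. Meis1 and Meis2 lie below the grey 2-fold band except for the bound at -0.44, and all other points lie inside it.

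The Pbx genes encode the partners that Meis and Pknox proteins bind. Pbx2 had signals of 538.8 in positive and 492.6 in negative cells in its brightest probe set. Its other probe sets had 181.7 against 140.2 and 128.4 against 163.1. The 3 did not go the same way, with log2 ratios of 0.13, 0.37 and -0.35, so Pbx2 has no settled direction. Pbx3 had 444.7 in positive against 550.2 in negative cells and, in its second probe set, 189.5 against 242.1. Both Pbx3 probe sets were slightly lower in positive cells, at -0.31 and -0.35, and the difference of the brighter was 1.24-fold. Pbx4, known mainly from testis, stayed below the floor in both libraries, with signals of 8.8 and 3.8 in positive and 7.6 and 5.6 in negative cells, so no ratio is given for it.

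The Pknox genes encode the other binding partners of Pbx. Pknox1 had 74.4 in positive against 90.6 in negative cells, then 59.4 against 53.9 and 54.8 against 51.6. Its brightest probe set was lower in positive cells, at -0.28, and the other two were higher, at 0.14 and 0.09. Pknox2 had 112.0 against 144.8, a log2 ratio of -0.37, and in its weaker probe set 33.2 in both libraries. Across the Pbx and Pknox genes, 10 probe sets lay above the floor, of which 5 were higher in negative and 4 in positive cells, and none differed by more than 1.30-fold. Small differences were the usual case on these arrays. Of all 24820 probe sets above the floor, 6.63% were at least 2-fold higher in negative and 2.54% in positive cells. Of the 13363 genes, 2912 had a log2 ratio from -0.25 to 0 and 3676 from 0 to 0.25.

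In order of their ratios the 7 measured members were Meis1, Meis2, Pknox2, Pbx3, Pknox1, Pbx2 and Meis3. The step from Meis2 to Pknox2 was 3.34 technical SDs. Between all other neighbours the step was at most 1.38 technical SDs. Pknox2, Pbx3, Pknox1, Pbx2 and Meis3 lay within 0.52 of each other on the log2 scale, and 21.4% of all genes had a ratio below that of Pknox2 and 67.1% below that of Meis3.

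**Figure D3:**
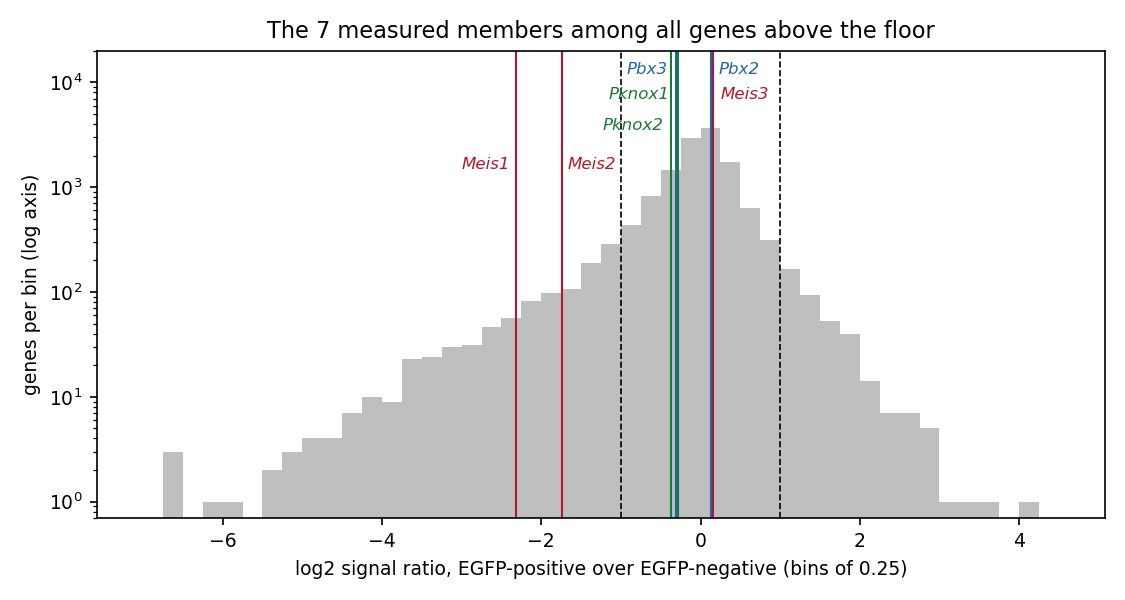
Histogram of the log2 ratio of the 13363 genes that exceeded the floor in either library (vertical log axis, genes per bin), with dashed lines at 2-fold and coloured lines for the 7 measured members. Meis1 and Meis2 lie in the lower tail, where 235 and 438 genes had lower ratios, and the other 5 members lie in the bulk of the genes.

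Markers of other cell types were read in the same 2 libraries. Of 16 measured markers of periotic mesenchyme, the connective tissue around the otocyst, 14 were at least 2-fold higher in negative cells, with a median log2 ratio of -3.79. Their summed signal was 608.6 in positive and 7607 in negative cells, so that 8.0% was kept, against 20.1% for the brightest Meis1 and 29.8% for the brightest Meis2 probe set. Col1a1, Foxc2, Tcf21 and Twist2 were at the floor in positive cells. The 2 markers within 2-fold were Tcf21, with a bound at -0.66, and Dcn, higher in positive cells at 41.9 against 30.7. Counting bounds at their bound, 13 of the 16 had a lower ratio than Meis1 and 14 a lower ratio than Meis2.

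Hindbrain neuroepithelium, which lies next to the otocyst, was examined next. Of 9 measured markers, 7 were at least 2-fold higher in negative cells, with a median of -2.42, and the summed signal was 580.7 in positive and 2992 in negative cells. The 2 within 2-fold were Egr2, at -0.20, and Msi1, higher in positive cells at 0.31. Olig3, Pax6, Wnt3a and Zic2 were at the floor in positive cells, and Dbx2, which the sums include, was at the floor in both libraries. Neural crest and glia had a median of -2.22, with 6 of 7 at least 2-fold higher in negative cells and Kit in positive cells. Their sum was 513.0 against 1646, with Foxd3 and Tfap2b at the floor in positive cells. Endothelium had 10 of 10 past 2-fold, a median of -2.24 and a sum of 79.5 against 1621, and the 7 genes Aplnr, Cdh5, Cldn5, Emcn, Flt1, Pecam1 and Tie1 were at the floor in positive cells. Leukocyte markers had 7 of 7, a median of -2.78 and 66.1 against 1044, with Aif1, Cx3cr1, Fcer1g and Ptprc at the floor there. Erythroid markers had 7 of 7, a median of -5.16 and 2990 against 21183, with Alas2, Hemgn and Klf1 at the floor there. All these medians count bounds at their bound, so with genes at the floor in positive cells they may lie lower than given. No listed marker had a signal of exactly 0 in either library. The part of these cell types in the signals of Meis1 and Meis2 was not tested. In sorted bulk RNA, fewer cells of a type and less RNA per cell cannot be told apart.

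Otic epithelium markers were above the floor in both libraries. Of 14 markers of otic epithelium, 11 were at least 2-fold higher in positive cells and none in negative cells, with a median of 1.33 and a summed signal of 11373 against 5544. All 9 ventral otocyst markers were at least 2-fold higher in positive cells, with Otx1 and Otx2, at 0.6 and 3.2, below the floor in negative cells. Of 9 dorsolateral markers, 5 were at least 2-fold higher in negative cells, with a median of -1.10 and a sum of 1035 against 1519. The other 4 lay within 2-fold, Hmx3 at -0.41 and, slightly higher in positive cells, Dlx5 at 0.19, Dlx6 at 0.34 and Lrig3 at 0.05. Ntn1 passed 2-fold by its brighter probe set, at -1.52, while its other was at -0.06. None of the 9 had a lower ratio than Meis1, and only Msx2, at -1.79 with its second probe set at -0.47, was lower than Meis2.

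Among 94 listed genes above the floor in both libraries, those closest to Meis1 in log2 ratio were Kdr at -2.29 and Esam at -2.34, both endothelial, and the myeloid gene Lyz2 at -2.22. Those closest to Meis2 were Sox3 at -1.76, Msx2 at -1.79 and the retinoic acid hydroxylase gene Cyp26b1 at -1.63. Likeness was the absolute difference of the log2 ratios over the 2 arrays, and was at most 0.094 for Meis1 and 0.11 for Meis2. Even the smallest technical SD, 0.249, exceeds these differences, so which genes are closest is not resolved. Genes at the floor in 1 library could not enter, among them 7 of 10 endothelial and 4 of 7 leukocyte markers.

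**Figure D4:**
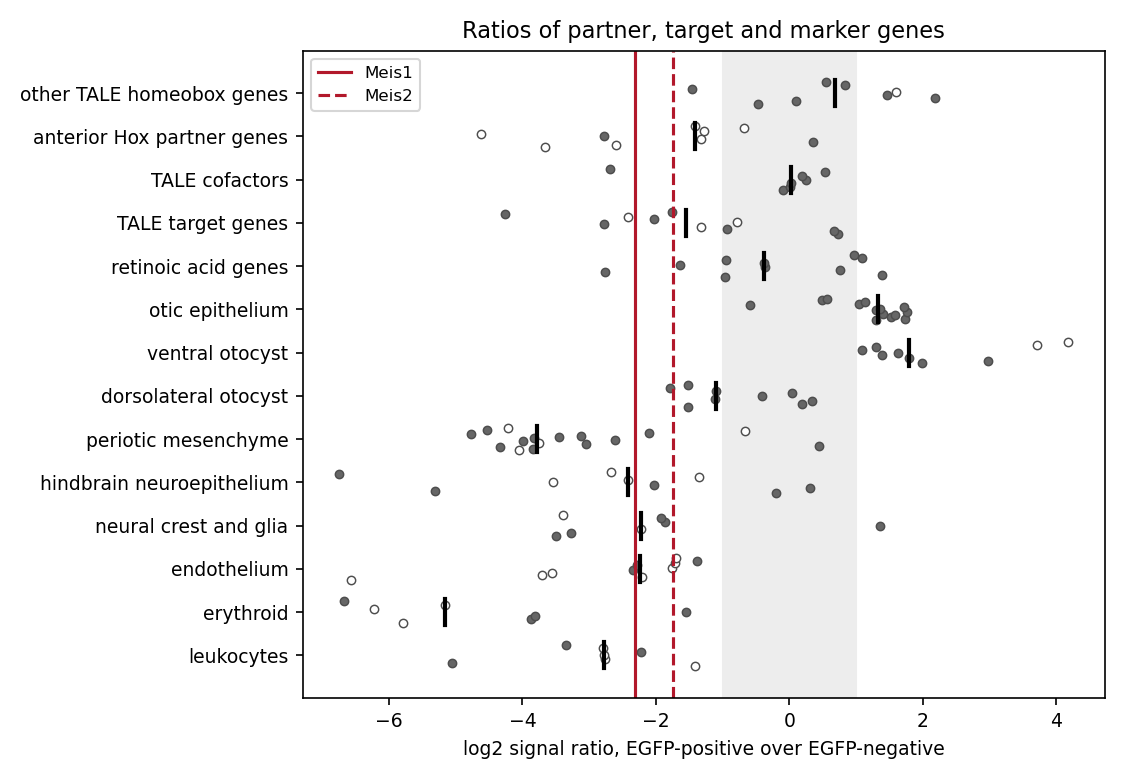
Log2 ratio (horizontal axis) of each measured gene of 14 lists, with open points where 1 library was at the floor, black bars at list medians, the 2-fold band in grey and red lines at Meis1 (solid) and Meis2 (dashed). The Meis1 line, at -2.31, passes near the medians of neural crest, endothelium and hindbrain, at -2.22, -2.24 and -2.42, and of the medians drawn the Meis2 line, at -1.75, is closest to that of TALE target genes, at -1.54. Both lines lie to the right of mesenchyme at -3.79 and to the left of dorsolateral otocyst at -1.10. Medians count bounds at their bound, so those of lists with genes at the floor in positive cells may lie lower. At that floor were 7 of 10 endothelial markers, so nearness of the Meis1 line to that median is not resolved. Among TALE target genes Hoxb1, Meox1 and Pax6 were bounds, so nearness of the Meis2 line to their list median is not resolved either.

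Hox genes encode the DNA-binding partners of Pbx and Meis complexes. Of 15 anterior Hox genes listed, 13 were named by a probe set and 9 had signal above the floor, of which 7 were at least 2-fold higher in negative cells and none in positive cells. The list median was -1.41, with bounds at their bound. Hoxb2 had 22.0 in positive against 150.1 in negative cells, 6.82-fold. For Hoxb3 the signals were 4.1 and 256.8, for Hoxa2 7.3 and 131.0, and for Hoxa3 7.9 and 63.2, each below the floor in positive cells. The 3 Hoxa3 probe sets ran from -2.60 to -0.07 on the log2 scale, so they did not all show the difference. Hoxa5, which had 65.8 against 51.5, was the only measured Hox gene of the list with a higher signal in positive cells, but the log2 ratio of its second probe set was -0.29.

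Other TALE genes did not share one direction. Of 8 measured, 3 were at least 2-fold higher in positive cells, 1 was so in negative cells and 4 lay within 2-fold, with a median of 0.69. The Iroquois genes Irx3 and Irx5 had 1701 against 372.4 and 448.2 against 162.4. Irx6 had 37.5 against 10.7 and was at least 3.02-fold higher. Mkx, a tendon and connective tissue regulator, had 15.4 in positive against 42.1 in negative cells.

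Cofactors of TALE complexes were mostly within 2-fold. Of 7 measured, 1 was at least 2-fold higher in negative cells, with a list median of 0.02. Pbxip1, which encodes a Pbx-binding protein that blocks Pbx and Hox complexes, had 113.4 in positive against 77.9 in negative cells, 1.46-fold, and its second probe set went the same way at 0.43. The histone deacetylase genes Hdac1 and Hdac3 were at 0.25 and 0.19. The gene past 2-fold was Zfp703, a zinc finger repressor whose place on the list is uncertain, with 42.6 against 275.5, but its other probe set was at 0.06.

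Genes known elsewhere as targets of Meis or Pbx complexes were also examined. Of 10 measured, 6 were at least 2-fold higher in negative cells and none in positive cells, with a median of -1.54. Besides Hoxb2, those with the greatest differences were Pf4, a platelet gene, with 13.4 against 258.0, the eye and neural tube gene Pax6, with 2.5 against 55.5, and the growth regulator gene Myc, with 35.0 against 142.3. The Pax6 signal in positive cells lay below the floor, and its 3 probe sets ran from -2.42 to -0.30 on the log2 scale. Hoxb1 and Hoxb2 are also on the Hox list and Pax6 on the hindbrain list. Ccnd1, which encodes cyclin D, had the highest ratio of the list, with 2649 in positive against 1588 in negative cells.

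Retinoic acid genes, of interest because Meis genes respond to retinoic acid, were split. Of 10 measured, 2 were at least 2-fold higher in each direction, with a median of -0.37. Crabp1, which encodes a retinoic acid binding protein, had 279.8 in positive against 1898 in negative cells, and Cyp26b1, close to Meis2 in ratio, had 27.4 against 84.9. The synthesis genes Rdh10 and Aldh1a3 went the other way, with 510.4 against 240.7 and 36.7 against 14.0. The 2 Rdh10 probe sets were at 1.08 and 1.45 on the log2 scale. The 3 of Aldh1a3 ran from 0.34 to 1.39, and its 14.0 lay close to the floor of 12.4 in negative cells. Within 2-fold, Aldh1a2, which encodes the main embryonic enzyme of retinoic acid synthesis, had 39.1 against 76.1, a log2 ratio of -0.96, and the receptor gene Rarb had 17.4 against 33.4, a ratio of -0.94.

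**Figure D5:**
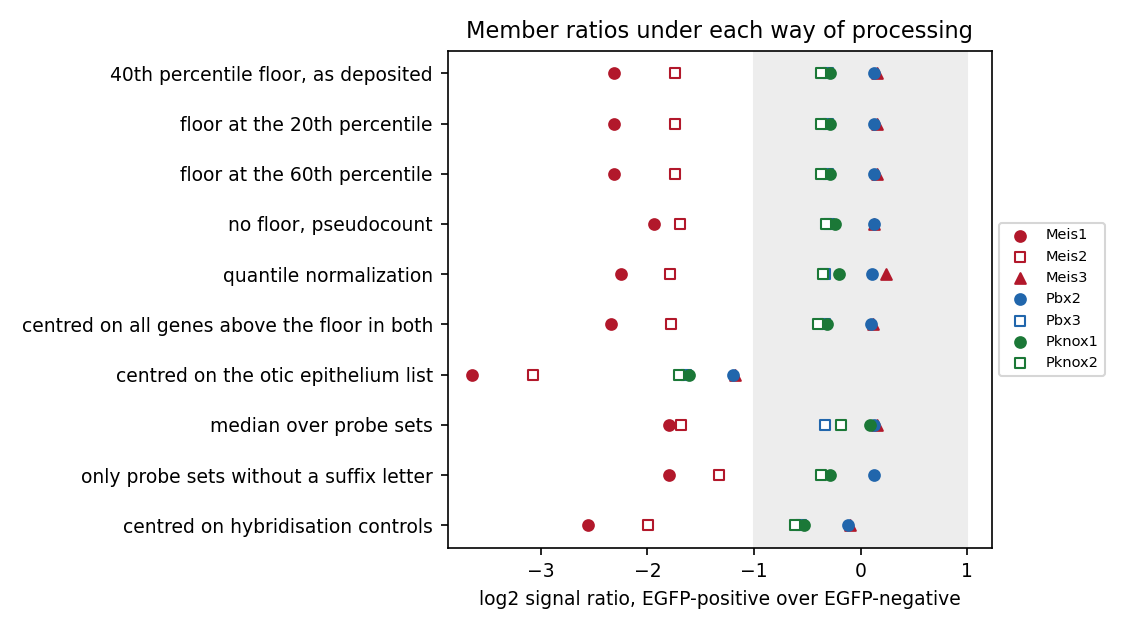
Log2 ratio (horizontal axis) of the 7 measured members under 10 ways of processing, the 2-fold band in grey. Meis1 and Meis2 lie left of the band throughout, and the other members do so only where ratios were centred on otic epithelium genes, which put 82.7% of all genes past 2-fold in that direction.

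How the arrays are scaled bears on the members near 0. Hybridisation controls of bacterial and phage sequence were read for bioC, bioD and cre, not for bioB. Those 12 probe sets had a median log2 ratio of 0.25. Centred on them, which lowered the median of all genes by as much, Meis3 stood at -0.10 and Pbx2 at -0.12, so that both changed sign, while Meis1 stood at -2.56 and Meis2 at -1.99. Centred on the median of the otic epithelium list, all 7 members with a ratio were higher by 2-fold or more in negative cells, as were 82.7% of all genes. The gap between Meis1 or Meis2 and the partner genes is the same under either centring, since a constant is subtracted from every gene.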

How the data were processed

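The authors deposited linear signal intensities, 1 for each probe set, made with MAS5 5.0 according to the submitters' processing notes. That program turns the paired probes for a transcript into a single summary, and the authors' arrays both have a mean of 100.0 after trimming 2% from each end, so they were scaled to a common level. The label protocols give 1 µg of total RNA per biotinylated cRNA. Detection calls were not used here. Of 45101 probe sets, 34958 named 1 gene in the platform annotation, 932 named several and 9211 were unnamed here.

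Each array was given a floor at its 40th percentile, below which lay all but 1 of 27 unspiked bacterial controls, the exception being at 12.3 in the EGFP-positive library. A gene was represented by its probe set of highest mean signal, its log2 ratio was taken after raising signals to the floor, and genes not above it in either library were left out. The limit was 2-fold. With 1 array per group no p-value was computed and nothing sets a difference against variation between samples. The arrays' number limits the precision.

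The members, the gene lists and the rules were chosen with earlier results of these data known. Named genes are all members, up to 4 genes with the greatest difference per list of partners, cofactors and targets, and the 3 listed genes closest in ratio to each member past 2-fold. Other listed genes named beside them were chosen after their values were seen. Marker lists are given by counts, medians and sums. Promoters are from RefSeq, GRCm38.p6. A comparison of the proteins was planned and not run. No coordinates are given for probe sets. The alternatives were floors at the 20th and 60th percentiles, a pseudocount of 16 with no floor, quantile normalization, 3 ways of centring, the median over probe sets, and probe sets without suffix letters. The procedure was tested on simulated data. Python 3.11.15, pandas 2.3.3, NumPy 2.4.6 and matplotlib 3.10.9 were used.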

Additional observations from a re-analysis of the deposited data

How the results depend on the processing

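Under 9 alternatives, Meis1 ranged from -3.64 to -1.79 and Meis2 from -3.08 to -1.33 on the log2 scale, lower by 2-fold or more in EGFP-positive cells in all 9. The count of members past 2-fold in that direction was 2 in 8 alternatives and 7 when centred on the otic epithelium list, where the median of the members was -1.64. That setting subtracts 1.33 from every gene by construction. In the opposite direction the count of members past 2-fold was 0 in all 9. Of 61 values of single members, 49 moved by less than the technical SD or not at all, and 12 by more, 7 of these under the otic epithelium centring. The 49 include values that could not move. The lower and the higher floor changed none of these ratios, because the signals behind them already exceeded both floors. Centring on all genes above the floor in both libraries subtracts a constant, which moved every ratio by -0.03. The median over probe sets cannot change Meis3, which has 1 probe set. Meis1 was at -1.94 with the pseudocount and -1.79 as the median over its probe sets or from those without a suffix letter, which also put Meis2 at -1.33. Pknox1 changed sign to 0.09 as the median over its probe sets. Centring on hybridisation controls was added after seeing the data. Probe sets without a suffix letter left no value for Meis3 and Pbx3. No paired analysis was possible because each group has 1 array. Depth has no direct measure on arrays, and signals near the floor limit the weaker Meis1 probe sets and Pbx4.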
